A study of Mus musculus with 12 samples.

Results

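Mitochondrial ribosomal protein genes were taken as all rows of the deposited table whose symbol begins with Mrpl or Mrps followed by a digit. This gave 76 of 23235 genes, 47 with an Mrpl and 29 with an Mrps symbol. All 76 passed the filter on low values that left 15400 genes, and 0 of them was listed at 0 in any library. The RNA came from spermatocytes of C57BL/6 mice, sorted at leptotene/zygotene (LZ) or at pachytene, which are successive stages of meiotic prophase. At each stage 3 libraries were labelled wild type (WT) and 3 were labelled Rnaseh1 knock-out (KO-labelled here), 12 in all. The labels do not state the age of the animals, the allele, whether the deletion was limited to some cells, or whether the replicates came from separate animals. The p-values therefore measure the spread between these libraries, which may be technical.

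Mitochondria carry their own ribosomes. These make only the few proteins that mitochondrial DNA encodes, nearly all of them subunits of the respiratory chain and ATP synthase. The ribosomal RNAs come from mitochondrial DNA, whereas every protein of the ribosome is encoded in the nucleus, translated in the cytosol and imported. Some of the proteins descend from bacterial ribosomal proteins and others are found only in mitochondrial ribosomes. RNase H1, the enzyme named by the label, removes RNA from RNA:DNA hybrids and is needed to replicate mitochondrial DNA.

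By textbook role, 16 members were small-subunit proteins with a bacterial counterpart and 10 were small-subunit proteins specific to mitochondria. Another 30 were large-subunit proteins with a bacterial counterpart and 19 were large-subunit proteins specific to mitochondria. The symbols do not always name the subunit: the products of Mrps18a and Mrps30 sit in the large subunit. Mrps36 kept its ribosomal symbol but is now known to encode a subunit of the 2-oxoglutarate dehydrogenase complex of the citric acid cycle, and was counted in neither subunit. Values are spike-in-scaled FPKM, which are fragments per length of transcript, so that genes can be compared. In these bulk libraries a change in the number of cells and a change in RNA per cell cannot be told apart.

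The promoters of the members are shown first because they carry features that the choice by symbol did not use. RefSeq promoter entries on GRCm38.p6, running from 250 bases before to 50 bases after the start of the gene, were found for 67 of the 76 members. The letters CCGGAAG, the core bound by ETS factors such as GABP, stood on either strand in 24 of the 67. Some genes have several entries, so shares were taken over entries: 24 of the members' 73 (32.9%), against 15.2% of the entries of all genes tested and 8.86% of all entries. The letters AAGATGGC of the YY1 motif stood in 12 members (16.4% of their entries), against 3.87% and 2.75%. The NRF1 palindrome stood in 3 members (4.11%), Mrpl9, Mrpl32 and Mrpl39, against 1.83% and 0.971%. Both the ETS and the YY1 letters stood in Mrps12, Mrps18a and Mrps27. The cyclic AMP response element TGACGTCA stood in 2 members (2.74%, against 2.86% of the entries of genes tested and 1.79% of all). The MYB letters AACNGTT stood in 3 (4.11%, against 3.71% and 4.45%), so these 2 motifs were near the background. A match describes the letters only, and binding was not measured here. The 5 printed below were chosen after the matches were known: among members with an NRF1, ETS or YY1 match, they had the lowest (Mrps7, Mrps24) or highest (Mrpl33, Mrpl39) log2 change from LZ to pachytene in WT, and Mrps18a had the highest among the members with both ETS and YY1 letters. Capitals mark the match.
Mrps7: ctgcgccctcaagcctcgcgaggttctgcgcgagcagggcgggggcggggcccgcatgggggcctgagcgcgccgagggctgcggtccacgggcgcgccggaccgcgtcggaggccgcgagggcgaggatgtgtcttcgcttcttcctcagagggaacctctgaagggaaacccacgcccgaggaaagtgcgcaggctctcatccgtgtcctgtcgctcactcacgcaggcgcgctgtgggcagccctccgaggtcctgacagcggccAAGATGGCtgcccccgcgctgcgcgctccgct
Mrps24: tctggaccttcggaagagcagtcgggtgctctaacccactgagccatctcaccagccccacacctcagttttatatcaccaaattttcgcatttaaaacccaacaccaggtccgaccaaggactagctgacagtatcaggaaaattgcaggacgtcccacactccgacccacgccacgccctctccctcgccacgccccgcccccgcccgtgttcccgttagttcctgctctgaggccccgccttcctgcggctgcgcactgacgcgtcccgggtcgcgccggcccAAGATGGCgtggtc
Mrps18a: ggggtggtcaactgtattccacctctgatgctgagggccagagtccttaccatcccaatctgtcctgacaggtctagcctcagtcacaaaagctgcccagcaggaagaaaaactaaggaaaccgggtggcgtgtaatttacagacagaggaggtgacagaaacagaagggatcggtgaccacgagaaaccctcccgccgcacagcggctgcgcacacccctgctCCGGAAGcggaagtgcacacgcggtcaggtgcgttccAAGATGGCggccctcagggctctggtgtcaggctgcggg
Mrpl33: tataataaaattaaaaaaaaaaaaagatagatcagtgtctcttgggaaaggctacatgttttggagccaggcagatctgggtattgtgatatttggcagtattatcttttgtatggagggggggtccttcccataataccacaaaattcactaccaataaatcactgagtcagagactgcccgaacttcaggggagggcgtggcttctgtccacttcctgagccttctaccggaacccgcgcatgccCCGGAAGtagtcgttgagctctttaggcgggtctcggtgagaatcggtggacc
Mrpl39: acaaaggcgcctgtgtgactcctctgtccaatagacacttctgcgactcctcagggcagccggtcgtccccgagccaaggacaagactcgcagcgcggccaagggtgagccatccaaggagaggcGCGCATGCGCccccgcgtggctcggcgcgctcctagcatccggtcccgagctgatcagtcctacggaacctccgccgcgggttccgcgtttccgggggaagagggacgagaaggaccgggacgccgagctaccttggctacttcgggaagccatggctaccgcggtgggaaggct

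The Mrps7 promoter lies at chr11:115603890-115604189 on the plus strand, and the Mrps24 promoter lies at chr11:5707652-5707951 on the minus strand. The matches there are AAGATGGC, beginning 19 and 37 bases into the transcript. The Mrps18a promoter lies at chr17:46110754-46111053 on the plus strand, with CCGGAAG 26 bases before the start and AAGATGGC 12 bases into the transcript. The Mrpl33 promoter at chr5:31613701-31614000 on the plus strand has CCGGAAG 3 bases before its start. The Mrpl39 promoter at chr16:84735195-84735494 on the minus strand has the NRF1 palindrome 125 bases before its start. The members with the highest change of all, Mrps30 and Mrpl24, and the one with the lowest, Mrps6, held none of the 3 motifs in this window. Members with the ETS letters had a median log2 stage change in WT of 2.37, and those without had 2.21. With and without the YY1 letters the medians were 2.30 and 2.21.

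A gene starting within 1000 bases on the opposite strand was found for 26 of the 67 members (38.8%) and for 22.4% of the genes tested that had a promoter entry. Neither share required the 2 genes to point away from each other: Rab6a stood at −36 bases from Mrpl48, so that these 2 overlap at their starts. In 1 such pair both genes were members: the starts of Mrpl46, a large-subunit gene, and Mrps11, a small-subunit gene, were 42 bases apart. Their log2 changes from LZ to pachytene in WT were 1.96 and 2.34. Mrps12 starts 147 bases from Sars2, the mitochondrial serine-tRNA synthetase, which was itself not called in that comparison (log2 change 0.68, limma adjusted p = 0.0911). All 76 members had an entry in GENCODE M21 and lay on 17 autosomes, with 0 on the X or Y chromosome.

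The whole series touches the members' values in a few ways. Rnaseh1 itself was 17.8 ± 2.39 at LZ in WT and 14.7 ± 3.62 at LZ in KO-labelled libraries (SD, n = 3), and was not called lower at either stage (adjusted p = 0.407 at LZ and 0.0638, on the higher side, at pachytene). The labels do not say which part of the gene was removed, so this gene-level value does not check them. The summed value of all genes was 766359 ± 141517 at LZ and 3855670 ± 467824 at pachytene in WT, and 473361 ± 41186 and 5765700 ± 945420 in KO-labelled libraries. The members thus have to be read beside the median of all genes. Pachytene markers were all higher at pachytene, 19 of 19 in each genotype. Of all genes tested, 80.9% were called higher in WT and 76.8% in KO-labelled cells. The summed leptotene/zygotene markers rose too, from at most 5224 to at least 13061.5 in WT and from at most 3915 to at least 18489 in KO-labelled libraries. Their share fell, from 0.541 to 0.734% at LZ to 0.386 to 0.414% at pachytene in WT. In KO-labelled libraries it went from 0.620 to 0.820% to 0.305 to 0.384%. Single genes can differ from such a sum. Dmc1 fell on the spike-in scale without overlap: WT libraries held 48.2 to 67.0 at LZ, and pachytene gave only 15.9 to 23.3. Its KO-labelled ranges were 36.3 to 46.4 (LZ) and 3.45 to 10.8 (pachytene). Sycp3 rose, with WT means of 2113 (LZ) and 6444 (pachytene). A list of 20 round spermatid genes made up 2.41 to 4.05% of the summed FPKM in WT and 0.221 to 1.64% in KO-labelled libraries at LZ. At pachytene it made up 1.09 to 1.63% and 0.105 to 0.295%. Leydig cell genes made up at most 0.0228% in any LZ library and 0.0379 to 0.232% in the pachytene libraries, and in WT LZ 2 of their 10 genes, Lhcgr and Hsd17b3, were at 0 in all 3 libraries. Sertoli cell genes went the other way. They made up 0.0705 to 0.111% in WT LZ and 0.0326 to 0.0462% in WT pachytene. In KO-labelled libraries they made up 0.111 to 0.214% and 0.0133 to 0.0183%. Peritubular and endothelial genes made up at most 0.00460% at LZ, 0.0168 to 0.0178% in WT pachytene and 0.00319 to 0.00485% in KO-labelled pachytene. Blood and macrophage genes made up at most 0.00390% at LZ and at least 0.00472% at pachytene. The part of these other cell types in the members' changes was not tested.

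The members differed widely in level. In WT LZ the highest were Mrpl20, Mrpl33 and Mrpl54 of the large subunit, Mrps18c of the small subunit and Mrpl52 of the large. Mrpl20 measured 656, 681 and 529 in the 3 libraries, and Mrpl33 measured 612, 674 and 475. Mrpl54, Mrps18c and Mrpl52 had means of 526 ± 94.2, 429 ± 59.0 and 417 ± 113. Each of these 5 overlapped in range with the next in the order. The lowest were Mrpl19 (12.6 ± 1.76), Mrpl17 (14.1 ± 2.43), Mrps30 (15.0 ± 4.30), Mrps27 (16.1 ± 4.37) and Mrps2 (16.1 ± 4.22), which did not differ beyond their spread. The highest mean was 49.5 times the lowest in WT LZ, 63.2 times in KO-labelled LZ, 114 times in WT pachytene and 118 times in KO-labelled pachytene. The order of levels was similar at the same stage, with a Spearman correlation across the 76 members of 0.982 between the LZ groups and 0.970 between the pachytene groups. Between stages it was 0.856 in WT and 0.777 between the KO-labelled groups. These correlations are descriptions across genes, which share libraries. Longer transcripts had lower levels (Spearman −0.484 in WT LZ, 76 members), and length had little relation to the WT stage change (−0.146). FPKM is itself divided by length, so level and length are not independent measures. The lengths are medians over each gene's protein-coding transcripts in GENCODE M21, which may differ from those used by the authors. Of the 3 paralogs of the bacterial S18 protein, Mrps18c stood apart in WT LZ at 429 ± 59.0, while Mrps18b (116 ± 8.51) and Mrps18a (107 ± 19.4) overlapped.

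**Figure D1:**
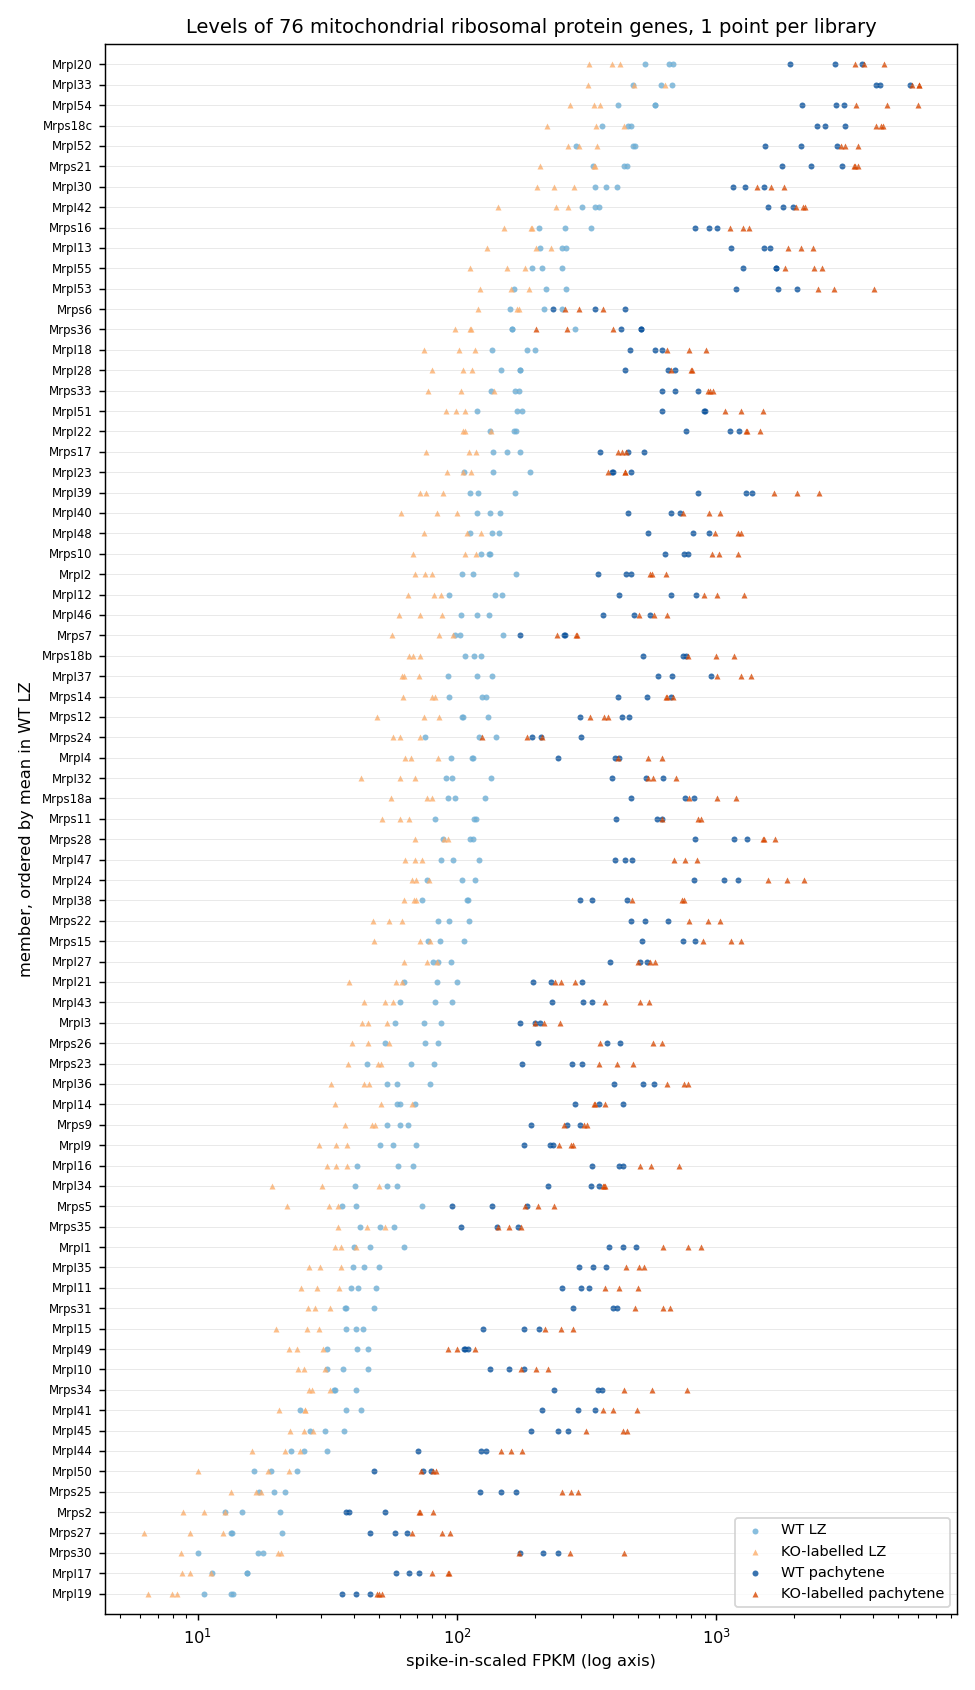
Level of each of the 76 members in the 12 libraries, as spike-in-scaled FPKM on a log axis; each point is 1 library, colour and shape give the group, and members are ordered by their mean in WT LZ. Within each genotype the LZ points lie left of the pachytene points for every member but Mrps6, whose WT groups overlap, and the order by level runs from Mrpl20 to Mrpl19.

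From LZ to pachytene in WT cells, all 76 members were higher on the spike-in scale. Of all genes tested, 80.9% were called higher and 0.487% lower. The members' log2 changes ranged from 0.67 to 3.76 with a median of 2.23, and the median of all 15400 genes was 1.64. With 0.1 in place of 1 added before the log, the all-gene median was 1.99, and with 5 it was 1.18. The members' median was 2.24 and 2.19 there, so the size of this gap depends on the value added. In KO-labelled cells all 76 were higher as well, against 76.8% of all genes higher and 2.83% lower, with a median of 3.37 for the members and 2.29 for all genes. With 0.1 and 5 added the all-gene median was 2.86 and 1.55 there, and the members' median 3.38 and 3.31. The groups of 3 libraries did not overlap for 75 members in WT (83% of all genes, higher side) and for 76 in KO-labelled cells (75.9%), with 0 members on the lower side (0.864% and 2.84%). Their call as higher is therefore shared with most genes. After division of every library by the median over genes of its ratios to a common reference (median-ratio scaling), which sets the all-gene median to near 0, 21 members were higher and 7 lower in WT, with a median of 0.19. At that scaling 20.4% of all genes were higher and 17.8% lower. In KO-labelled cells 30 members were higher and 12 lower, with a median of 0.39, against 31.7% and 29.3%. Quantile normalisation put the members' medians at −0.06 in WT and −0.14 in KO-labelled cells, against −0.02 and 0.06 for all genes. With every library scaled to the same total the members' medians were −0.10 and −0.22, against −0.21 and −0.42 for all genes. The members' median was thus below the all-gene median under quantile normalisation only.

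The members summed to 11171, 11028 and 8474 in the WT LZ libraries and to 42552, 61483 and 55043 in the WT pachytene libraries. In the KO-labelled libraries they summed to 5571, 7738 and 7485 at LZ and to 84178, 76360 and 67523 at pachytene. Every pachytene sum was above every LZ sum. The ratio of the mean sums was 5.19 in WT and 10.97 in KO-labelled cells, and the same ratios over all genes were 5.03 and 12.2. As a share of all FPKM the members made up 1.34 ± 0.0691% at LZ and 1.37 ± 0.125% at pachytene in WT. In KO-labelled libraries the shares were 1.46 ± 0.163% and 1.33 ± 0.0739%, and the ranges of the 4 groups overlapped. Cytosolic ribosomal proteins made up 10.2 ± 1.51% at LZ and 7.31 ± 0.514% at pachytene in WT, without overlap and with no test. The mean level of small-subunit genes over that of large-subunit genes was 0.866 ± 0.0413 at LZ and 0.773 ± 0.00541 at pachytene in WT, without overlap. It was 0.890 ± 0.0376 and 0.761 ± 0.0399 in KO-labelled cells, also without overlap. With medians in place of means the ranges of the stages overlapped in both genotypes.

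**Figure D2:**
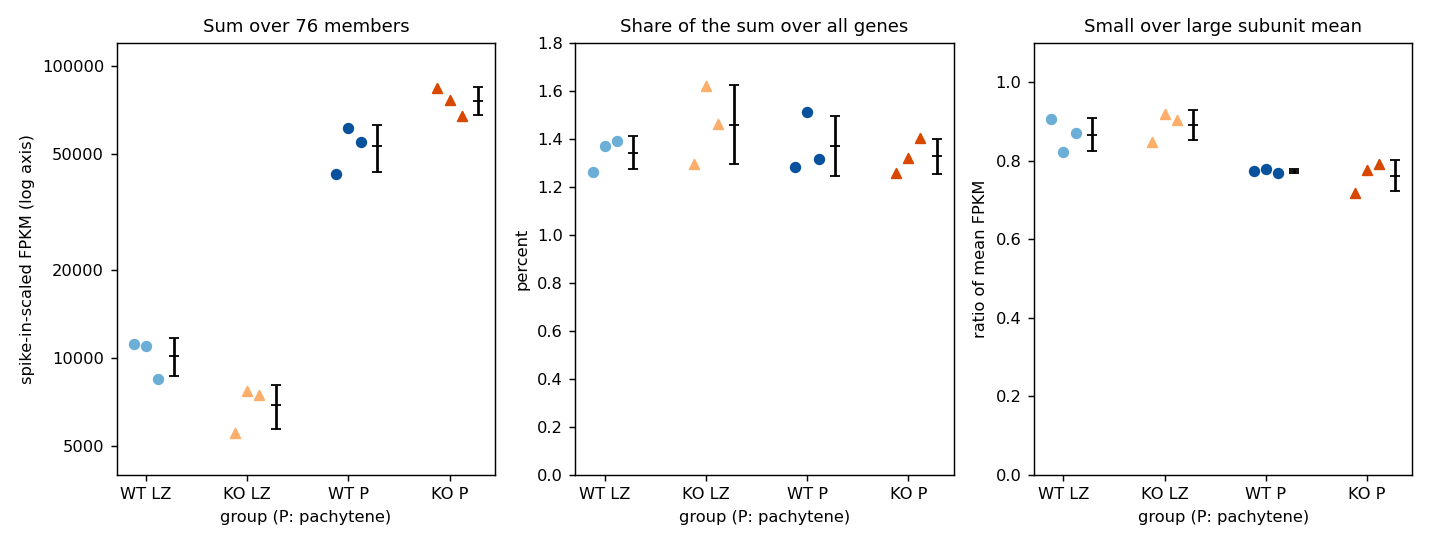
Sum of the 76 members (left, log axis), their share of the sum over all genes in percent (middle) and the mean small-subunit level over the mean large-subunit level (right) in each library; points are libraries and black bars are the mean ± SD of 3. The sums separate the stages, the shares lie between 1.26 and 1.62% in every group, and the subunit ratio is lower at pachytene.

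The members did not rise by equal amounts. The small-subunit proteins with a bacterial counterpart had a median log2 change of 1.93 in WT and the mitochondria-specific ones 2.35. For the large subunit the corresponding medians were 2.196 and 2.384. In KO-labelled cells the 4 medians were 2.79, 3.61, 3.30 and 3.49, in the same sequence. With each library centred on its median member, an alternative added after the data were seen, 28 members lay above the centre and 12 below it in WT (limma adjusted p under 0.05, against 16.2% and 33.6% of all genes). In KO-labelled cells 33 lay above and 16 below (21.9% and 52.7%). The centre is the members' median level, so 0 on this scale is not their median change. That median was 0.18 in WT and 0.26 in KO-labelled cells, which favours counts above the centre. All 28 of the first set were above in both genotypes, and 10 members were below in both: Mrpl3, Mrpl21, Mrpl23, Mrpl49, Mrps6, Mrps7, Mrps17, Mrps24, Mrps35 and Mrps36. On this scale 5 of the 16 small-subunit members with a bacterial counterpart were below in WT, compared with 1 of the 10 mitochondria-specific small-subunit members. Of the large subunit, 4 of 30 with a counterpart and 1 of 19 without were below. Whether these shares differ was not tested.

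The steepest rise in WT was that of Mrps30, a large-subunit protein despite its symbol, which is specific to mitochondria. It measured 17.1, 17.8 and 10.04 in WT LZ and 246, 214 and 175 in WT pachytene, a log2 change of 3.76 ± 0.38 (SE, limma adjusted p = 8.4e-07). In KO-labelled libraries it measured 20.4, 21.02 and 8.6 at LZ and 274, 441 and 173 at pachytene. The groups did not overlap in either genotype, and the third KO-labelled library was the lowest at both stages. Mrpl24, a large-subunit protein whose bacterial counterpart sits near the exit of the peptide tunnel, went from 104, 117 and 76.6 to 821, 1212 and 1074 in WT. Its log2 change was 3.37 ± 0.22 in WT and 4.69 ± 0.22 in KO-labelled cells, the highest there. Mrps28 of the small subunit rose from 105 ± 14.7 to 1101 ± 250 (3.36 ± 0.21). Mrpl1, the counterpart of the bacterial protein of the mobile L1 stalk, changed by 3.14 and mitochondria-specific Mrpl39 by 3.12 in WT. In KO-labelled cells the same 2 changed by 4.31 and 4.68, followed by Mrpl53 at 4.29 and Mrps31 at 4.28. In WT, Mrps30, Mrpl24, Mrps28, Mrpl1 and Mrpl39 also stayed called higher under median-ratio, quantile and equal-total scaling, with Mrps30 at 1.76 and Mrpl39 at 1.07 under median-ratio scaling.

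At the other end stood Mrps6, the counterpart of bacterial S6 in the small subunit. It measured 254, 217 and 160 in WT LZ and 235, 446 and 341 in WT pachytene, so that its groups overlapped. On the spike-in scale it was called higher by 0.67 ± 0.26 (limma adjusted p = 0.0312), whereas with median-ratio scaling it was lower by a log2 change of −1.38 (adjusted p = 8.5e-04). In KO-labelled cells it went from 121, 174 and 170 to 365, 295 and 262 (0.99 on the spike-in scale, −1.98 with median-ratio scaling). Mrps7, whose bacterial counterpart binds the small ribosomal RNA early in assembly, measured 151, 103 and 98.5 in WT LZ and 176, 260 and 258 in WT pachytene. Its change was 0.98 ± 0.25 on the spike-in scale and −1.06 with median-ratio scaling, both called. Mrps24, the counterpart of bacterial S3 at the entry of the messenger, changed by 1.07 ± 0.28 and by −0.97 on the same scales, both called. Mrps36, the dehydrogenase subunit, changed by 1.29 in WT and by −0.76 with median-ratio scaling, the latter not called (adjusted p = 0.0625). Mrps2 changed by 1.36 and by −0.61 (adjusted p = 0.0192). The 5 lowest members in KO-labelled cells were Mrps6, Mrps36 (1.35), Mrps24 (1.43), Mrps7 (1.81) and mitochondria-specific Mrps35 (1.84). These log2 changes, positive on the spike-in scale, all turn negative with median-ratio, quantile or equal-total scaling.

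The changes in the 2 genotypes were computed from separate libraries and went together across the 76 members (Pearson 0.918, Spearman 0.932). Across all 15400 genes the correlations were 0.832 and 0.864. They are descriptions across genes, and the 4 groups share the authors' spike-in scaling.

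**Figure D3:**
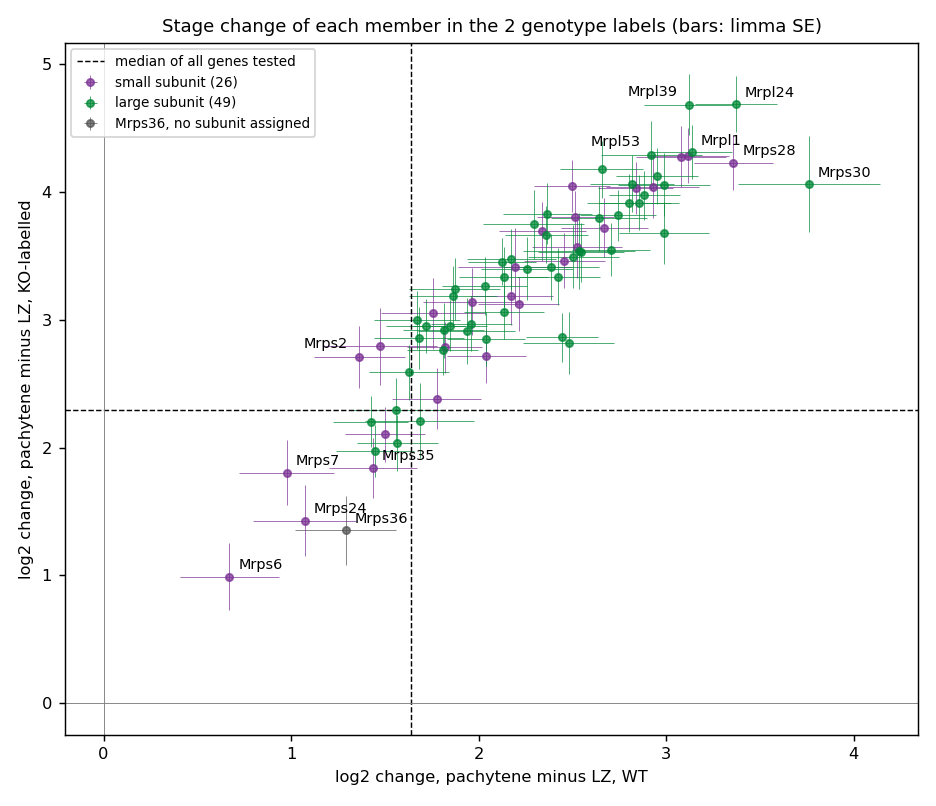
Log2 change from LZ to pachytene in WT (x axis) against KO-labelled cells (y axis) for each member, on log2(spike-in-scaled FPKM + 1); bars are the limma SE, colours give the subunit and dashed lines the median of all genes tested. Mrps6, Mrps7, Mrps24 and Mrps36 lie below both medians, and Mrpl24, Mrpl39 and Mrps30 lie at the upper right.

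At LZ, 11 members were lower in KO-labelled than in WT libraries and 0 were higher. Of all genes, 12.9% were lower and 0.136% higher, so the members' 14.5% was close to the background. The 11 were Mrpl2, Mrpl9, Mrpl18, Mrpl28, Mrpl30, Mrpl32, Mrpl37, Mrpl46, Mrps11, Mrps18b and Mrps22. The median log2 change of the members was −0.58 and that of all genes −0.43. With 0.1 in place of 1 added before the log they were −0.583 and −0.565, and with 5 they were −0.54 and −0.25. For 49 members every KO-labelled library was below every WT library, against 36.5% of all genes, and for 0 was every one above (0.935%). With median-ratio scaling the median member was at 0.00 and 0 members were called in either direction by limma, with 0 at an unadjusted p under 0.05 as well (0.39% of all genes were called higher and 0.688% lower). Centred on the median member, 0 were called and 4 had an unadjusted p under 0.05, all higher (0.188% and 0.123% of all genes called).

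Mrpl32, the large-subunit protein that must be trimmed by the m-AAA protease after import before it can join the ribosome, had the lowest change. It measured 95.7, 136 and 90.9 in WT LZ and 42.5, 60.2 and 68.6 in KO-labelled LZ (log2 change −0.90 ± 0.24, limma adjusted p = 0.0332). The groups did not overlap, and the third KO-labelled library was the nearest to WT. Mrps36 was second lowest at −0.86 but not called (adjusted p = 0.0511). Mrpl18 (−0.83) of the large subunit and Mrps11 (−0.82) and Mrps22 (−0.81) of the small subunit were called. Mrps22 measured 96.2 ± 13.3 in WT and 54.4 ± 7.08 in KO-labelled libraries. Least different from WT were Mrps30 (0.09), Mrps35 (−0.19), Mrpl27 (−0.23), Mrpl50 (−0.27) and Mrps25 (−0.29), none of them called. The 11 calls rest on the choice of libraries and fit: 0 remained called lower when only the LZ groups were fitted or no filter was applied, 0 without WT LZ replicate 1 or 2 or without KO-labelled replicate 2 or 3, 1 without KO-labelled replicate 1, and 29 without WT LZ replicate 3. The count of all genes lower, 1992 in the main comparison, was 0 for each of the first 2 settings, 6, 4, 341 and 88 for the next 4, 1807 without KO-labelled replicate 1 and 2925 without WT LZ replicate 3. Round spermatid transcripts were also lower in KO-labelled LZ, in 13 of 20 listed genes, and their part in the members' values was not tested.

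At pachytene, 22 members were higher in KO-labelled than in WT libraries and 1 was lower. Of all genes, 24.6% were higher and 14.3% lower, so the members' share of higher calls was not far above the background. The members' median was 0.54 and the all-gene median 0.37. With 0.1 in place of 1 added before the log they were 0.54 and 0.40, and with 5 they were 0.54 and 0.28. By role, 3 of 16 and 5 of 10 small-subunit members were higher, with and without a bacterial counterpart, and 6 of 30 and 8 of 19 large-subunit members. Whether these shares by role differ was not tested. For 49 members every KO-labelled library was above every WT library (36.4% of all genes), and for 1 every one was below (18% of all genes). With median-ratio scaling 2 members were higher, Mrps25 and Mrpl47, and 1 was lower, Mrps36, against 3.57% and 9.62% of all genes.

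Mrpl53, a large-subunit protein specific to mitochondria, was the highest at 0.92 ± 0.27 (limma adjusted p = 0.0230). It measured 1195, 2042 and 1733 in WT pachytene and 4066, 2834 and 2471 in KO-labelled pachytene. Mrps25, a small-subunit protein specific to mitochondria, measured 148, 123 and 168 in WT and 293, 276 and 254 in KO-labelled libraries. Its groups were well apart, and its change of 0.91 ± 0.20 (adjusted p = 0.0100) stayed called with median-ratio scaling (0.56 ± 0.14, adjusted p = 0.0247) but not with quantile normalisation (0.41, adjusted p = 0.108). Mrps34 (0.88), Mrpl24 (0.86) and Mrpl38 (0.85) followed. Mrpl47, the counterpart of bacterial L29, measured 408, 446 and 473 in WT and 841, 754 and 685 in KO-labelled libraries (0.78 ± 0.18), and had an adjusted p of 0.0442 with median-ratio scaling. The count of 22 fell to 2 without WT pachytene replicate 1, to 9 without WT replicate 2 and to 1 without KO-labelled replicate 1 or 2, and was 30 without KO-labelled replicate 3. The count over all genes moved as well, from 3784 to 933, 797, 300 and 370 where the members' count fell, and to 4604 without KO-labelled replicate 3.

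Mrps36 went the other way. It measured 514, 510 and 427 in WT pachytene and 201, 265 and 400 in KO-labelled pachytene, a ratio of means of 0.596. The groups did not overlap, with the third KO-labelled library close to the lowest WT library. The log2 change was −0.80 ± 0.27 (limma adjusted p = 0.0360), and it was −1.14 with median-ratio scaling (adjusted p = 0.0293), −1.22 with quantile normalisation and −1.35 with equal totals. The call was lost without WT replicate 1 (adjusted p = 0.0950) or 2 (0.0947), without KO-labelled replicate 1 (0.154) or 2 (0.1001), and with no filter on low values (0.0732). GENCODE M21 names 3 Mrps36 pseudogenes (of 5 named pseudogenes of members), and reads shared with them cannot be told apart in the deposited values. The next lowest were Mrps24 at −0.43, Mrps12, of the decoding centre, at −0.12, Mrps6 at −0.11 and Mrpl49 at −0.07, none of them called. Mrps24 measured 195, 299.5 and 211 in WT and 187, 213 and 125 in KO-labelled libraries, with overlap. Centred on the median member, Mrps36, Mrps24, Mrps12 and Mrps6 were lower and Mrpl24 and Mrpl53 higher (19.4% and 2.34% of all genes), with Mrps24 at −0.84 (adjusted p = 0.0115).

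**Figure D4:**
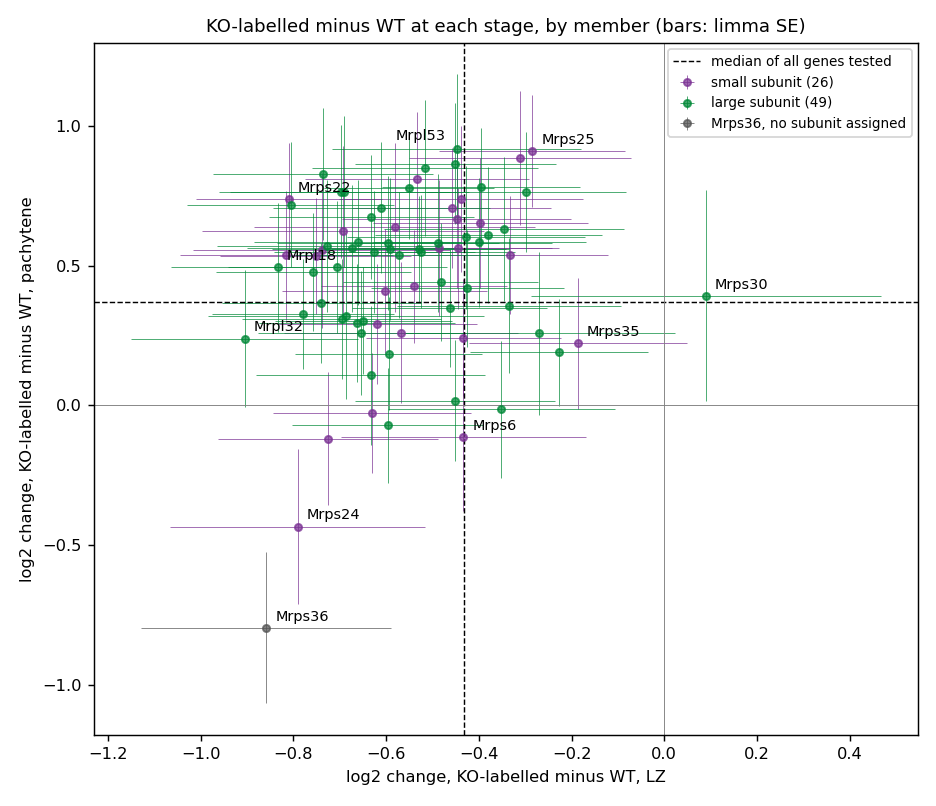
Log2 change of KO-labelled minus WT at LZ (x axis) against that at pachytene (y axis) for each member, on log2(spike-in-scaled FPKM + 1); bars are the limma SE and dashed lines the median of all genes tested. Most members lie left of 0 and above 0, and Mrps36 and Mrps24 lie at the lower left.

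The difference between the genotype changes of the 2 stages was called for 59 members, all in the direction of a higher value at pachytene. Of all genes 34.9% were called in that direction and 3.49% in the other. The median difference was 1.07 for the members and 0.72 for all genes. With 0.1 in place of 1 added before the log they were 1.09 and 0.86, and with 5 they were 1.04 and 0.49. The smallest p belonged to Mrps22 (1.55 ± 0.28, limma adjusted p = 0.00502), Mrpl47 (1.33), Mrpl37 (1.52), Mrpl39 (1.56) and Mrps18b (1.29). Mrps22 measured 111, 93.0 and 84.7 in WT LZ and 47.3, 61.4 and 54.5 in KO-labelled LZ. At pachytene it measured 468, 531 and 649 in WT and 1036, 927 and 782 in KO-labelled libraries, so that neither pair of groups overlapped and the order turned. With median-ratio scaling 0 members were called by limma and 3 had an unadjusted p under 0.05, against 2.37% and 4.36% of all genes called higher and lower. Quantile normalisation also gave 0 calls, and equal totals gave 2 lower. Centred on the median member, Mrps6 was called lower (−0.73) and 0 were higher, against 13.3% and 1.94% of all genes. The genotype changes at LZ and at pachytene, which come from separate libraries, had a Pearson correlation of 0.171 and a Spearman correlation of 0.154 across the 76 members. Over all genes the values were 0.179 and −0.021.

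Genes that work with the mitochondrial ribosome were set beside the members. Their counts from LZ to pachytene have to be read against 80.9% of all genes higher in WT and 76.8% in KO-labelled cells, and with median-ratio scaling against 20.4% higher and 17.8% lower in WT. The list of other ribosomal proteins under different symbols held 8 genes, among them Lactb, whose product is not an established ribosomal protein. All 8 were higher from LZ to pachytene in WT. In KO-labelled cells 7 were higher and Lactb was not called (0.53, limma adjusted p = 0.209). Dap3, a GTP-binding protein of the small subunit, changed by 2.74 in WT and 4.17 in KO-labelled cells. With median-ratio scaling 5 of the 8 were higher and 1 lower in WT. Of 25 assembly factors tested, 23 were higher in WT on the spike-in scale, with Mettl15, a methyltransferase of the small ribosomal RNA, at 2.996, Mterfd1 at 2.96 and Mettl17 at 2.95. With median-ratio scaling 4 were higher and 4 lower. Of 18 translation factors 17 were higher in WT, led by the elongation factor Gfm1 (3.08) and the release factor family member Mtrf1 (2.96), and median-ratio scaling left 4 higher and 2 lower. Of 17 mitochondrial aminoacyl-tRNA synthetases, which charge the transfer RNAs, 13 were higher in WT and 17 in KO-labelled cells, with Yars2 at 3.24 and Rars2 at 2.91 in WT. With median-ratio scaling 2 were higher and 6 lower in WT. The same scaling left 36 of 84 nuclear OXPHOS genes, the partners of the mitochondrial ribosome's products, higher and 8 lower (median 0.41). It left 2 of 77 cytosolic ribosomal proteins higher and 14 lower (median −0.21). The members' median of 0.19 lay between these.

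Between genotypes at LZ, the lower genes of these lists were Mrp63 (−0.89), a large-subunit protein under an older symbol, the assembly genes Ftsj2 (−1.42) and Nsun4 (−0.95), the elongation factor Tufm (−0.92), the recycling factor Mrrf (−0.88), the formyltransferase Mtfmt (−0.75) and the synthetase Fars2 (−1.16). Ftsj2 was near the floor of the values, at 3.19 ± 1.27 in WT LZ and 0.58 ± 0.54 in KO-labelled LZ. None of the 8, 25, 18 and 17 genes was higher. The counts of 1, 2, 3 and 1 lower genes stand beside 12.9% of all genes, and with median-ratio scaling none of the 7 was called (adjusted p from 0.0592 to 0.675). At pachytene, where 24.6% of all genes were higher and 14.3% lower, 3 of the 8 genes listed as other ribosomal proteins were higher (Dap3, Aurkaip1 and Ptcd3). So were 9 of 25 assembly genes, with Trub2 at 1.13 and Rpusd4 at 1.09, while 2 were lower, among them the ribosomal RNA methyltransferase Mrm1 (−1.21). Of the translation factors 5 were higher, with Mtif3 at 0.99 and Tufm at 0.79, and Mtrf1l was lower (−0.88). Both Mrm1 and Mtrf1l had low levels. Mrm1 measured 4.50 ± 0.96 in WT and 1.39 ± 0.50 in KO-labelled pachytene, and Mtrf1l 3.08 ± 0.30 and 1.32 ± 0.81. Of the synthetases 5 were higher and 0 lower, led by Aars2 (1.20), Mars2 (0.996) and Fars2 (0.84). With median-ratio scaling the pachytene counts of higher and lower genes were 0 and 0, 1 and 3, 0 and 0, and 2 and 1, against 3.57% and 9.62% of all genes.

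**Figure D5:**
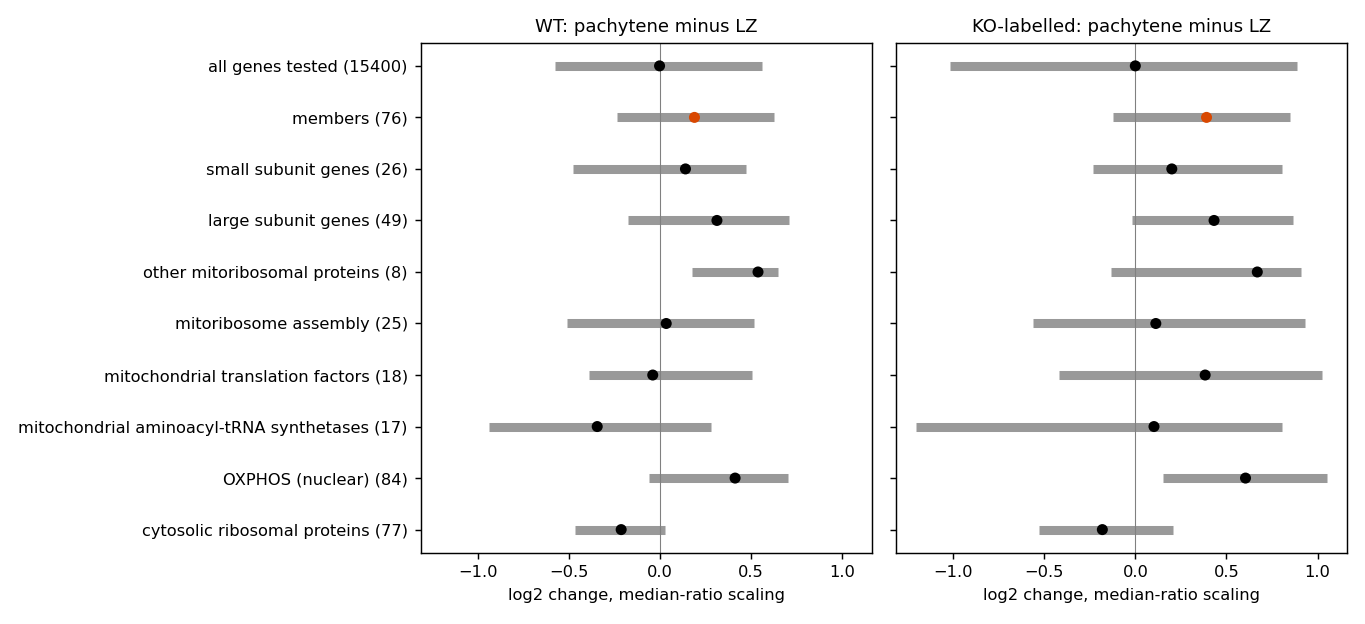
Median (point) and quartiles (grey bar) of the log2 change from LZ to pachytene with median-ratio scaling in WT (left) and KO-labelled cells (right) for the members (orange), their subunits and related lists; the number of genes tested is in parentheses. The members' medians of 0.19 and 0.39 lie below those of the OXPHOS genes and above those of the cytosolic ribosomal proteins.

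Some members share sequence with a neighbour, which bears on their values because the library kit is not stated to mark the strand. In GENCODE M21, 32 members shared exon bases with another gene, 27 of them with one on the opposite strand. Mrps25 shared 4590 bases with Nr2c2, and Mrpl24 shared 594 bases with Rrnad1, whose own stage change in WT was 3.15. Mrps34 shared 1309 bases with Mapk8ip3 (1.20), Mrps30 shared 623 with B430218F22Rik, and Mrps7 shared bases with Gga3 (1.42) and Mif4gd (3.47). Mrps6 shared 159 bases with Slc5a3 (1.03) and Mrps24 shared 226 with Urgcp (1.84), both on the same strand. Mrpl9, called lower at LZ in KO-labelled libraries, shared 157 bases on the opposite strand with the round spermatid gene Oaz3. The KO-labelled minus WT log2 change of Oaz3 was −2.41 at LZ and −2.28 at pachytene. The part of Oaz3 reads in the Mrpl9 values was not tested. The median WT stage change was 2.24 for the 32 members that share exon bases and 2.24 for the 44 that do not. How the authors assigned such reads is not given in the sources used here.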

How the data were processed

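RNA-seq was read as deposited. Per the submitters' processing notes, TopHat2 2.1.1, Cufflinks 2.2.1 and genome build mm9 were used. Per the labels' protocols, polyA RNA was amplified and tagmented with a Vazyme kit. The deposited values are FPKM that the authors scaled by ERCC spike-ins; the formula, the annotation and read counts are not given in the sources used here, so depth is unknown and no counting intervals are given. The 4 columns without a name were not used.

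Values were tested as log2(FPKM + 1) in limma 3.58.1 (R 4.3.3; lmFit and eBayes with trend) with 1 mean per group over 12 libraries, for genes with at least 1 in at least 3 libraries. A fold change on this scale is smaller for low genes. Two-sided Benjamini-Hochberg adjusted p under 0.05 over all 15400 genes was called. The code was tested on simulated data. Scaling alternatives kept the same 15400 genes. Members and lists were chosen with earlier results of these data known. Named members are the 5 highest and 5 lowest by WT LZ mean, the 5 highest and 5 lowest changes per comparison (the 5 smallest p for the interaction), the Mrps18 paralogs, and up to 3 called genes per related list. Other members are named where they complete a count or a sequence feature; these were chosen after their values were seen. Promoters are from RefSeq (GRCm38.p6), exons from GENCODE M21 on GRCm38; no mm9 position is given. The other alternatives were pseudocounts of 0.1 and 5, no filter, a filter of 5, only the groups compared, a replicate block and each library left out.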

Additional observations from a re-analysis of the deposited data

Results flagged for a closer look

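The genotype difference itself differed between the stages for 59 members (limma interaction, adjusted p under 0.05), which is why these results are listed. Those with the smallest p had log2 differences of 1.55 (Mrps22), 1.33 (Mrpl47), 1.52 (Mrpl37), 1.56 (Mrpl39) and 1.29 (Mrps18b), each with a negative genotype change at LZ and a positive one at pachytene on the spike-in scale. Over all genes tested the median difference was 0.72, with 34.9% called in the same direction as the 59 members and 3.49% in the other. With median-ratio scaling 0 members were called.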

How the results depend on the processing

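On the spike-in scale the stage counts of 76 higher held at 75 to 76 under every pseudocount, filter, fit and left-out library. Scaling moved them. Higher and lower members in WT were 21 and 7 (median-ratio), 19 and 19 (quantile), 18 and 21 (equal totals) and 28 and 12 (centred on the median member, added after seeing the data). In KO-labelled cells they were 30 and 12, 17 and 25, 16 and 31, and 33 and 16. Of all 15400 genes, 3149 and 2734, 3077 and 2768, 2103 and 3829, and 2488 and 5168 were higher and lower in WT. In KO-labelled cells the all-gene counts were 4879 and 4507, 4941 and 4104, 2881 and 6333, and 3367 and 8120. The 11 lower members at LZ became 0 under all 4 scalings, with no filter (0 of all genes called, 50 members at an unadjusted p under 0.05) and with only the groups compared (43 unadjusted). They became 7 with a pseudocount of 5 (1101 of 15400 genes lower) and 18 with a filter of 5 (2433 of 11975). Under the 4 scalings 106, 105, 136 and 19 of all genes were lower at LZ. At pachytene the 22 higher and 1 lower became 2 and 1, 0 and 2, 0 and 6, and 2 and 4 under the 4 scalings, and 14 and 0 with no filter. The all-gene counts were 550 and 1482, 455 and 792, 42 and 1414, and 361 and 2980, and 2469 and 1628 of 23235 genes with no filter. The 59 interaction calls became 0 higher under all 4, with 0, 0, 2 and 1 lower. Of all genes 365 and 671, 101 and 259, 91 and 861, and 298 and 2049 were higher and lower there. Leaving out 1 library gave 0 to 29 lower at LZ, 1 to 30 higher and 0 to 1 lower at pachytene, and 34 to 60 for the interaction (34 without WT pachytene replicate 1 or KO-labelled pachytene replicate 2, 35 without KO-labelled pachytene replicate 1, 37 without WT LZ replicate 2). Over all 15400 genes the same counts ran from 4 to 2925, from 300 to 4604, from 978 to 2348 and from 3397 to 5917. The cause of these shifts was not tested.

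The ratio of summed levels, KO-labelled over WT at LZ, over WT at pachytene, and pachytene over LZ in WT and KO-labelled cells, was 1.03, 1.11, 1.27 and 1.37 with median-ratio scaling and 1.09, 0.968, 1.02 and 0.909 with equal totals. Signs turned for these members under median-ratio, quantile and equal-total scaling, in this sequence. At LZ: Mrps35 0.39, 0.57, 0.48; Mrpl27 0.35, 0.52, 0.45; Mrpl50 0.29, 0.39, 0.38; Mrps25 0.28, 0.38, 0.37. From LZ to pachytene in WT, Mrps6 −1.38, −1.65, −1.66, Mrps7 −1.06, −1.27, −1.34, Mrps24 −0.97, −1.18, −1.25, Mrps36 −0.76, −1.03, −1.04, and Mrps2 −0.61, −0.55, −0.86. In KO-labelled cells, Mrps6 −1.98, −2.50, −2.58, Mrps36 −1.62, −2.10, −2.21, Mrps24 −1.53, −1.92, −2.12, Mrps7 −1.16, −1.64, −1.76, and Mrps35 −1.11, −1.46, −1.69. The interaction of Mrps18b was −0.045 under quantile normalisation. With 1 library left out, Mrps30 ranged from −0.16 to 0.48 and Mrpl50 from −0.49 to 0.053 at LZ, and at pachytene Mrps12 from −0.31 to 0.0018, Mrps6 from −0.36 to 0.11 and Mrpl49 from −0.17 to 0.0023.

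The deviations of libraries with the same replicate number were weakly correlated (18 pairs, from −0.17 to 0.26, 7 over 0.1), and this was not tested. All pairs of replicate 2 were positive, from 0.077 to 0.26. The numbers were not used as pairs in the main fit. With a replicate block the counts were 10 lower at LZ, 18 higher and 1 lower at pachytene, 76 and 76 for the stages and 55 for the interaction. Depth is unknown, 3 libraries per group limit the precision, and an exact permutation test of 3 against 3 cannot give a p below 0.1.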
